A study of Homo sapiens with 2 samples.

Results

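Isolated MLL3 binding sites whose summit stood apart from the GRHL2 summit were examined in KYSE510, a human cell line that grows in culture and derives from a squamous carcinoma of the esophagus. Chromatin of cultured cells was fixed with formalin, sheared and precipitated with anti-MLL3 for 1 library and anti-GRHL2 for the other, and regions were called against input DNA. Both groups are the same cell line, and the labels give neither a genotype change nor a drug for them. With 1 library per antibody, the spread between cultures is not known for any value. Cells with either factor silenced were not analysed here.

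An offset site was an MLL3 region on chromosomes 1 to 22 that overlapped a GRHL2 region by at least 1 bp, had its summit more than 200 bp from the nearest GRHL2 summit, and had no other MLL3 summit within 12.5 kb. A summit is the base of highest signal in a region. Summits in 2 tracts crowded with regions, at 212.1 to 216.7 Mb on chromosome 1 and 5.2 to 9.6 Mb on chromosome 9 (hg19), were left out. Of the 12196 regions in the MLL3 list, 10269 lay on these chromosomes outside the tracts, 8592 of those overlapped a GRHL2 region, 5796 were also isolated, and 1092 were offset. The other 4704 isolated shared sites, with summits at most 200 bp apart, are called centred. The members were chosen from the measured positions of regions and summits in these same libraries, so overlap, isolation and a long summit distance are conditions of the choice and not findings.

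MLL3, also named KMT2C, is a large histone methyltransferase of the COMPASS family that places monomethyl marks on lysine 4 of histone H3, mainly at enhancers. It is not known as a sequence-specific DNA-binding protein and reaches its sites through other proteins and chromatin marks. GRHL2 is a Grainyhead-like transcription factor that binds its own DNA motif and can open chromatin at epithelial enhancers. In epithelia it is known for sustaining genes of cell adhesion. Because enhancers often carry several factors side by side within one open stretch, the place of a cofactor's summit relative to a factor's summit is a property that ChIP-seq can describe, within the resolution of fragment length and peak calling.

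Positions below are in hg19, the build named in the submitters' processing notes. Whether a site lies in a gene, an exon, an intron or a UTR, and which bases lie under it, was not analysed here, because no annotation or sequence of that build was used. Fold enrichment is the authors' deposited ratio of ChIP signal to local background at the summit. It ranks regions within 1 list. The MLL3 list went down to a −log10 q of 2.07 and the GRHL2 list to an unadjusted −log10 p of 1.30, so GRHL2 regions include much weaker calls. The files hold no read counts, and the depth is unknown.

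Offset sites formed the tail of a single, falling distribution of summit distances. Of the 5796 isolated shared sites, 3337 had summits at most 100 bp apart, 1367 between 100 and 200 bp, 541 between 200 and 300 bp, 253 between 300 and 400 bp, 124 between 400 and 500 bp and 158 between 500 and 1000 bp. The offset sites made up 18.8% of the isolated shared sites (exact Clopper-Pearson 95% interval 17.8 to 19.9%, which covers the counting of regions only). Their median distance was 302 bp, with quartiles of 240 and 418 bp and a range from 201 to 2550 bp. Only 16 members had a distance above 1000 bp. The nearest GRHL2 summit lay at the higher coordinate in 536 members and at the lower one in 556, and the interval of the share at the higher coordinate (49.1%, 46.1 to 52.1%) held an even division.

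**Figure D1:**
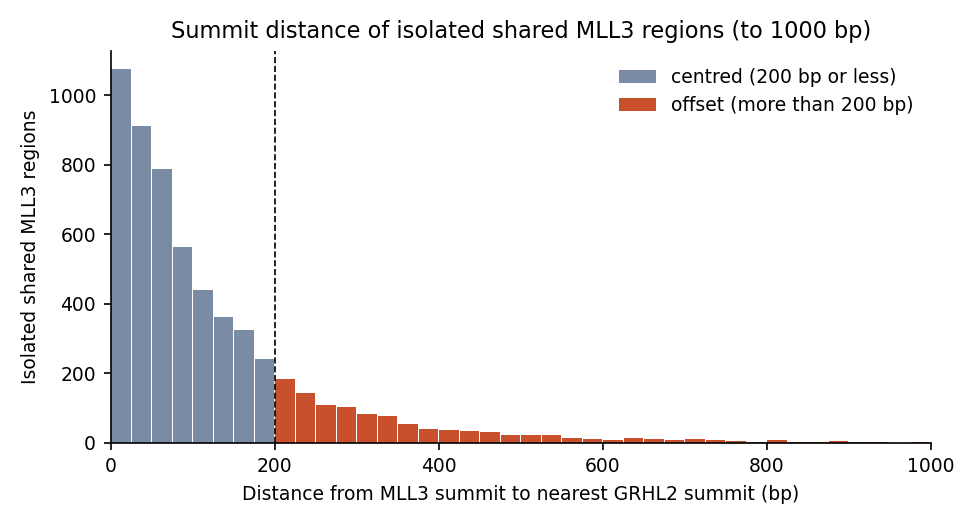
Number of isolated shared MLL3 regions (vertical axis) by distance from the MLL3 summit to the nearest GRHL2 summit in bins of 25 bp (horizontal axis, bp), shown up to 1000 bp. Counts fall steadily across the dashed line at 200 bp, with no gap or second peak between the 4704 centred and the 1092 offset sites.

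No break in the values marked the threshold. The 196 sites up to 20 bp short of it had a median MLL3 fold of 6.77 and a median GRHL2 fold of 4.37, and the 150 sites up to 20 bp past it had 6.65 and 4.03. Just inside, at 201 bp, the member of highest MLL3 fold was on chromosome 10 (43160597 to 43161290, MLL3 fold 15.5, GRHL2 fold 7.59). Just outside, at 200 bp, the corresponding site was also on chromosome 10 (43455914 to 43456445, MLL3 fold 9.01, GRHL2 fold 4.64). For the isolation distance, the member closest to another MLL3 summit was 12552 bp away from it, on chromosome 12 (79805716 to 79805941, MLL3 fold 6.65). Among shared regions with a summit distance above 200 bp, the one nearest to this limit on its other side was on chromosome 1. It spanned 120216113 to 120217605 (MLL3 fold 15.2), with another MLL3 summit at 12457 bp.

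Most offset sites lay within the body of a GRHL2 region and did not just touch its edge. The MLL3 summit fell inside a GRHL2 region in 852 of the 1092 members (78.0%, 75.4 to 80.4%), and 575 MLL3 regions (52.7%) lay wholly within 1 GRHL2 region. The reverse was less common: a summit of an overlapping GRHL2 region fell inside the MLL3 region in 395 members (36.2%, 33.3 to 39.1%). Among centred sites these shares were 98.0% and 91.5%, but there the short summit distance nearly fixes them. Each of the 1092 members had a nearest GRHL2 region of its own, and in 1073 that region was one that it overlapped. Only 11 members overlapped 2 GRHL2 regions.

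The members fell into 4 arrangements. In 324 (29.7%), each summit lay inside the other factor's region. Their MLL3 regions were wide (median 659 bp) and had the highest median MLL3 fold of the 4 arrangements, 8.79, with a median GRHL2 fold of 6.40. In 528 (48.4%), a narrower MLL3 region (median 328 bp, MLL3 fold 6.08) had its summit inside a GRHL2 region of median width 981 bp but missed the GRHL2 summit. In 71 (6.502%), the MLL3 region held the GRHL2 summit while its own summit lay outside, and those GRHL2 regions were narrow (median 364 bp, GRHL2 fold 2.88).

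The remaining 169 members (15.5%) met GRHL2 only at the margin, with neither summit inside the other region and a median overlap of 98 bp. They had the lowest medians of the arrangements, an MLL3 fold of 5.65 and a GRHL2 fold of 2.84, the latter close to the 2.88 of the 71 members above. None exceeded an MLL3 fold of 17.7 or a GRHL2 fold of 12.9. A wide region more easily holds the other summit, and fold rose with width among the members (Spearman's rho 0.57 for MLL3, 0.69 for GRHL2). The part of width in the order of the arrangements was not tested. In 88 of these 169 (52.1%) the nearest GRHL2 region had a q above 0.05, as did 70.2% of all 145886 GRHL2 regions on the same chromosomes outside the tracts. Among the 324 members with both summits inside, 24 (7.41%) had such a GRHL2 region.

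The outlines of the regions were closer to each other than their summits. The midpoints of the MLL3 and the nearest GRHL2 region were a median of 190 bp apart, against 302 bp for the summits, and they were closer than the summits in 913 members (83.6%). In 271 members (24.8%, 22.3 to 27.5%) the midpoints were within 100 bp. Choosing sites by a long summit distance favours this order, so it describes the members and tests nothing. Both summits also stood away from the middle of their own regions. The MLL3 summit was a median of 14.1% of the region's width away from its midpoint (10.5% at centred sites), and the GRHL2 summit 15.7% (9.55% at centred sites). The choice by a long summit distance favours this too, so it is likewise a description and not a finding.

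At the threshold of 200 bp, both factors had a lower median fold at offset sites than at centred sites. For GRHL2 this order depended on the threshold. The median MLL3 fold was 6.45 (quartiles 5.20 and 8.85, 95% order-statistic interval of the median 6.31 to 6.65) at offset sites and 7.46 (7.26 to 7.53) at centred sites, a difference of -1.01. All 10269 MLL3 regions considered had a median of 6.78, and the 1677 without a GRHL2 region had 5.76. The median fold of the nearest GRHL2 region was 4.14 (quartiles 3.03 and 7.31, interval 4.00 to 4.40) at offset sites and 6.37 (5.996 to 6.72) at centred sites, a difference of -2.24. When the 174 sites more than 500 bp apart were set against all closer ones, that difference was 0.809, in the opposite direction. Its interval, -0.556 to 1.57, held both signs. With the threshold of 200 bp, the upper GRHL2 quartiles stood further apart than the medians, at 7.31 for offset and 22.6 for centred sites. Regions of 1 library are not replicates, so these differences describe the 2 lists and were not tested.

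**Figure D2:**
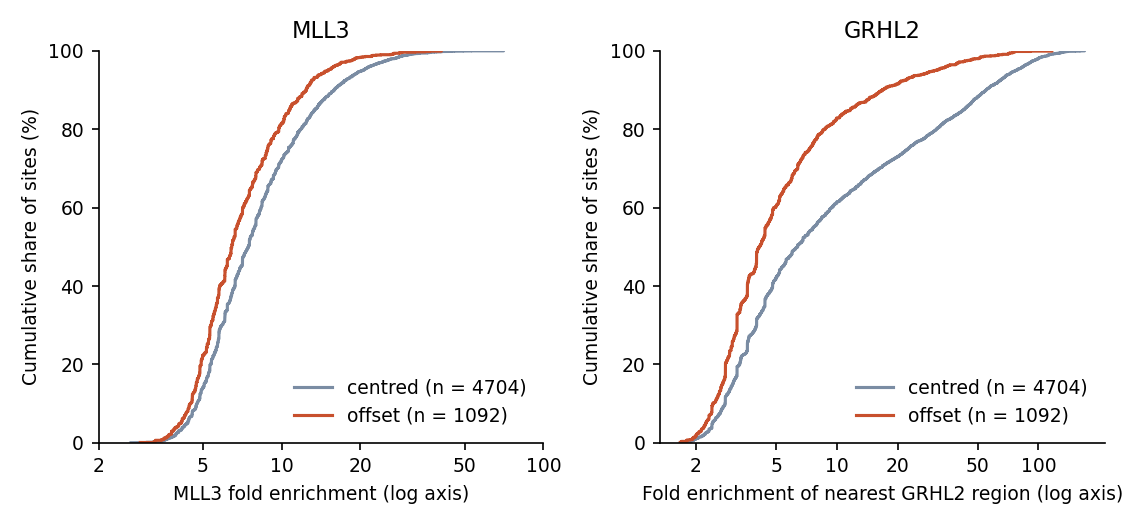
Cumulative share of sites (vertical axes, %) by MLL3 fold enrichment (left) and by fold enrichment of the nearest GRHL2 region (right), both on log axes, for 1092 offset and 4704 centred sites. At this threshold of 200 bp the offset curves lie to the left of the centred curves in both panels, with upper GRHL2 quartiles of 7.31 and 22.6.

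Strong regions of either factor were thinner among the members. An MLL3 fold of at least 10 was reached by 202 members (18.5%, 16.2 to 20.9%), against 22.5% of all MLL3 regions considered and 27.8% of centred sites. A fold of at least 20 was reached by 18 members (1.65%), against 3.67% of all considered and 5.21% of centred sites. An MLL3 −log10 q of at least 10 was reached by 470 members (43.0%), against 47.9% of all considered and 55.3% of centred sites. For GRHL2, 187 members (17.1%, 14.9 to 19.5%) had a nearest region with a fold of at least 10, against 38.6% of centred sites and 3.76% of all GRHL2 regions considered. Both kinds of site thus had more such GRHL2 regions than the GRHL2 list as a whole, in which most regions have no MLL3 region. A −log10 q of at least 2 was met by the nearest GRHL2 region of 722 members (66.1%), against 80.0% of centred sites and 18.6% of all GRHL2 regions considered. A q above 0.05 was found in 252 members (23.1%) and in 13.2% of centred sites.

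The share of isolated shared sites that were offset fell step by step with the significance of the GRHL2 region. It was 28.8% (25.8 to 31.9%) of 875 sites where the GRHL2 q was above 0.05 and 26.9% of 438 where the q was lower but the −log10 q still under 2. Between a −log10 q of 2 and 5 it was 22.6% of 1100 sites, and between 5 and 20 it was 21.2% of 1297. It was then 13.6% (11.5 to 15.9%) of 984 sites between 20 and 100, and 5.81% (4.501 to 7.36%) of 1102 sites at 100 or more. The intervals of the 2 strongest classes overlapped neither each other nor those of the weaker classes. Even so, 64 members lay on GRHL2 regions of the strongest class.

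The same direction was seen along the MLL3 list. Offset sites made up 27.0% (24.1 to 30.0%) of 905 isolated shared sites with an MLL3 fold below 5, 16.7% of 1535 between 7 and 10, and 6.84% (4.11 to 10.6%) of 263 with a fold of 20 or more. A weak region also has a less certain summit, and the part of summit precision in these shares was not tested.

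**Figure D3:**
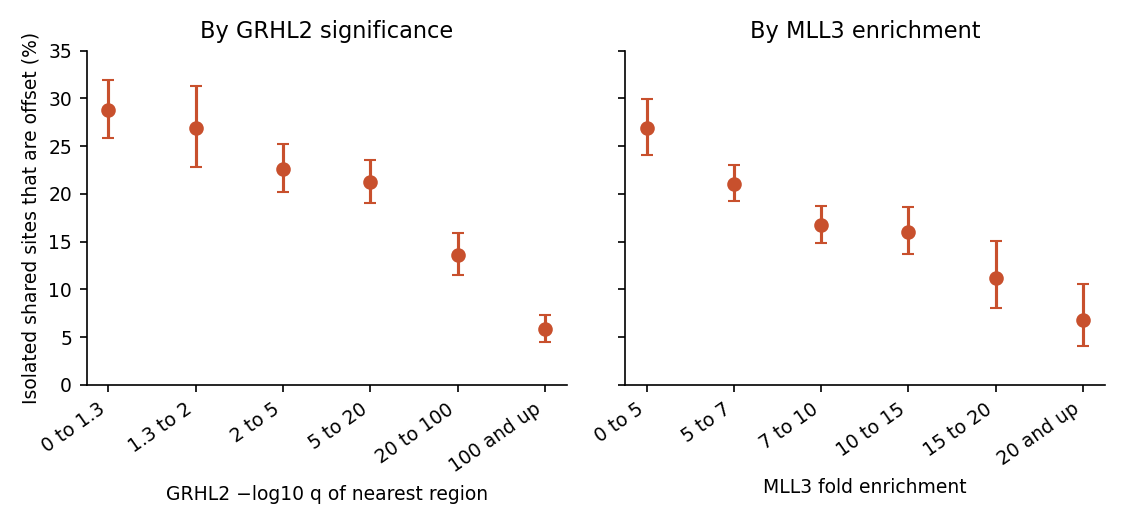
Share of isolated shared sites that were offset (vertical axes, %) by class of −log10 q of the nearest GRHL2 region (left) and of MLL3 fold enrichment (right); points are shares and bars exact 95% intervals over regions. The share falls from 28.8% to 5.81% along the GRHL2 classes and from 27.0% to 6.84% along the MLL3 classes.

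GRHL2 width alone sorted the sites little, but wide GRHL2 regions of modest significance were offset most often. Across classes of GRHL2 width the offset share ran from 12.2% (9.28 to 15.7%, 2000 bp and wider) to 21.3% (19.1 to 23.7%, 1000 to under 1500 bp). Within the widest regions it depended on significance. Of 105 isolated shared sites on GRHL2 regions of 1500 bp or more with a −log10 q between 5 and 20, 57 were offset (54.3%, 44.3 to 64.0%), as were 18 of 33 with a −log10 q below 5 (54.5%). At a −log10 q of 20 or more, 86 of 886 such wide regions were offset (9.71%, 7.84 to 11.8%). In GRHL2 regions between 500 and under 1000 bp the shares were 29.0%, 13.9% and 7.02% for the same classes of significance from weak to strong. A wide region leaves more room for a long summit distance, which the rule required.

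The 75 members on wide GRHL2 regions with a −log10 q below 20 had a median GRHL2 fold of 5.996 and a median summit distance of 470 bp. All 75 MLL3 summits fell inside the GRHL2 region, while 18 of the MLL3 regions reached a GRHL2 summit. Within each class of width, the GRHL2 regions of offset sites had a lower median fold than those of centred sites. It was 11.1 against 52.4 at 1500 bp and wider, and 6.18 against 15.2 at 1000 to under 1500 bp. It was 3.67 against 5.20 at 500 to under 1000 bp, and 2.80 against 3.10 below 500 bp. Widths can still differ within a class, and GRHL2 fold rose with width (Spearman's rho 0.69 at offset and 0.8 at centred sites).

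**Figure D4:**
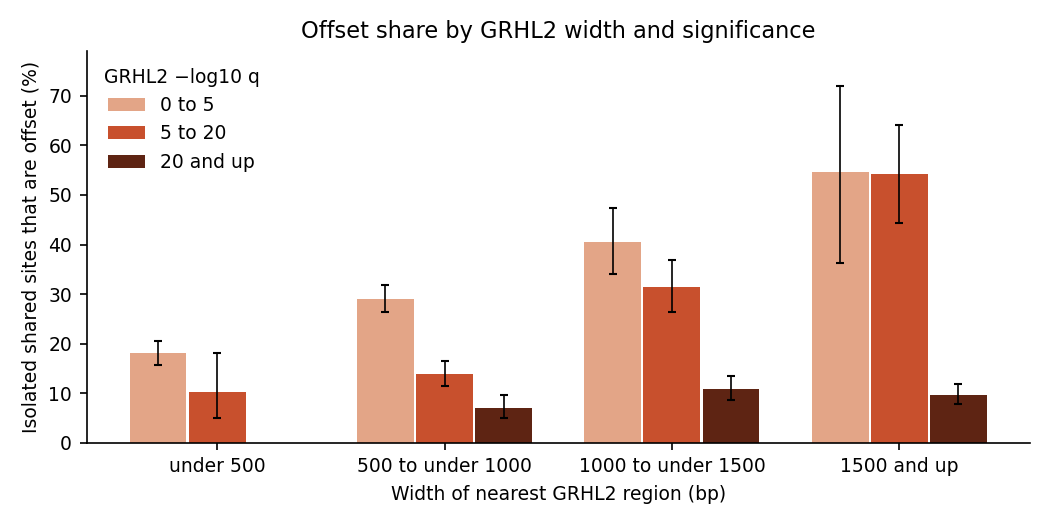
Share of isolated shared sites that were offset (bars, vertical axis in %, with exact 95% intervals over regions) by width of the nearest GRHL2 region in bp and by its −log10 q; no site had a width under 500 bp with a −log10 q of 20 or more. In regions of 1500 bp and wider the share was 54.5% and 54.3% in the weaker classes and 9.71% in the strongest.

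MLL3 fold varied little with distance within the members, while the median GRHL2 fold was higher beyond 500 bp. Across the 1092 sites, Spearman's rho was -0.04 between MLL3 fold and summit distance, 0.09 between GRHL2 fold and distance, and 0.27 between GRHL2 width and distance (Pearson r on log2 values -0.03, 0.13 and 0.34). The folds of both factors went together less than at centred sites, with a rho of 0.16 against 0.30. These are descriptions across regions that share a pair of libraries. By distance class, the median MLL3 fold stayed between 6.07 and 7.08. The median GRHL2 fold was 4.00 in members between 200 and 300 bp, 3.98 between 300 and 400 bp and 3.64 between 400 and 500 bp. It was then 5.34 in the 128 members between 500 and 750 bp, 7.20 in the 30 between 750 and 1000 bp and 12.2 in the 16 above 1000 bp, a course that the rank correlation over all members does not show. The median GRHL2 width grew from 761 bp in members between 200 and 300 bp to 2337 bp in the 16 members above 1000 bp.

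Very wide MLL3 regions were found among the members at about the share seen in clustered shared regions. An MLL3 width of at least 1000 bp was found in 54 members (4.95%, 3.74 to 6.40%), against 4.72% (3.96 to 5.57%) of clustered shared regions, 3.05% of all MLL3 regions considered and 2.61% of centred sites. Of the 177 isolated shared sites this wide, these 54 made up 30.5% (23.8 to 37.9%), against 18.8% over all widths. The 54 had a median MLL3 fold of 12.0, a median GRHL2 fold of 10.5 and a median summit distance of 449 bp. As with GRHL2 width, a wide MLL3 region leaves more room for the long summit distance that the rule required. The median MLL3 width as such was alike, 404 bp at offset and 402 bp at centred sites.

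At the strongest offset sites, as at most members, the MLL3 region lay mostly within GRHL2 regions. In all 10 members of highest MLL3 fold (26.6 to 40.8), each summit lay inside the other factor's region. At least 84.9% of each MLL3 region was covered by GRHL2 regions, and the median over all members was 100%. Of the 10, 6 lay wholly within 1 GRHL2 region, against 52.7% of all members and 70.9% of centred sites. The MLL3 regions in turn covered between 46.3% and 100% of the GRHL2 region, with a median of 78.0%. Their summits were 206 to 573 bp apart, while the midpoints of the regions were 13 to 339 bp apart. The GRHL2 fold of these sites ranged from 5.52 to 76.3 and was below 10 in 5 of them, against 905 of all 1092 members.

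The member of highest MLL3 fold lay on chromosome 1 (113304928 to 113306661, 1734 bp). Its MLL3 fold of 40.8 was the 25th highest in the MLL3 list. The overlapping GRHL2 region (fold 19.6) had its summit 573 bp towards lower coordinates, and 84.9% of the MLL3 region was covered. On chromosome 14 (34766880 to 34767788), with an MLL3 fold of 36.8 and a GRHL2 fold of 31.5, the GRHL2 summit was 439 bp to the right. Of the 909 bp of this MLL3 region, 908 were covered by the GRHL2 region.

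The site on chromosome 5 (125703865 to 125704916) was strong for both factors, with an MLL3 fold of 35.4 and a GRHL2 fold of 76.3. It was first by product of ranks, and its distance of 206 bp was close to the threshold. The site on chromosome 4 (14728085 to 14728924) had an MLL3 fold of 32.3 and a GRHL2 fold of 14.4, with the summits 333 bp apart.

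In 5 others of these 10 the GRHL2 fold was below 10. It was still above the 90th percentile of all GRHL2 regions considered, 4.40. On chromosome 17 (16189139 to 16190230) the MLL3 fold was 28.8 and the GRHL2 fold 6.40, with 221 bp between the summits. On chromosome 3 (98164639 to 98165371) the folds were 28.4 and 5.996, with 209 bp between the summits and 47 bp between the midpoints. On chromosome 21 (40275182 to 40276175) they were 28.1 and 8.07, with 276 bp between the summits.

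The sites on chromosomes 7 and 2 were of the same kind. On chromosome 7 (91186258 to 91187690) the folds were 26.8 and 5.52, and the GRHL2 region of 1999 bp contained the whole MLL3 region of 1433 bp, with 315 bp between the summits. On chromosome 2 (159618015 to 159618747) the folds were 26.6 and 7.34. There the outlines nearly coincided, with midpoints 13 bp apart, while the summits were 240 bp apart. The site on chromosome 11 (122502545 to 122503559) differed from these, with folds of 26.8 and 34.4 and 249 bp between the summits. Among all 18 members with an MLL3 fold of at least 20, 9 had a GRHL2 fold below 10, against 905 of all 1092 members. In 15 of these 18 each summit lay inside the other region, against 324 of all members.

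**Figure D5:**
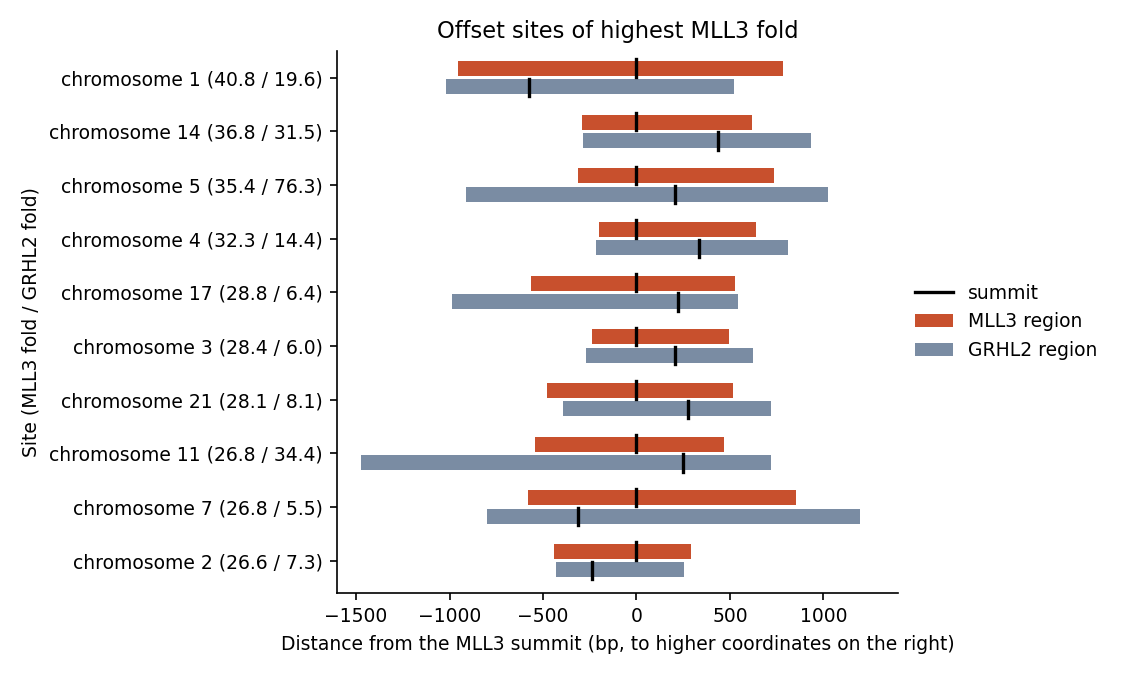
MLL3 and GRHL2 regions (bars) with their summits (black ticks) at the 10 offset sites of highest MLL3 fold, aligned on the MLL3 summit; the horizontal axis is distance in bp, and the labels give the MLL3 and the GRHL2 fold. The bars overlap along at least 84.9% of each MLL3 region, while the ticks are 206 to 573 bp apart.

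Offset sites on the strongest GRHL2 regions carried MLL3 at widely different levels. In the 22 members with a GRHL2 fold of at least 50, the MLL3 fold ran from 4.56 to 35.4 with a median of 8.61. All 22 MLL3 summits lay inside the GRHL2 region, at a median distance of 325 bp from its summit. The highest GRHL2 fold, 116.8, was on chromosome 14 (104583264 to 104583666). MLL3 had a fold of only 4.60 there, in a region of 403 bp inside a GRHL2 region of 2561 bp, with 230 bp between the summits. On chromosome 20 (20529967 to 20530902) the GRHL2 fold was 91.5 and the MLL3 fold 10.6, with a distance of 334 bp. The other 2 sites of this set besides the one on chromosome 5 named above were on chromosome 7 (64146200 to 64147344, GRHL2 fold 76.2, MLL3 fold 8.26, 706 bp apart) and chromosome 5 (79563028 to 79563316, GRHL2 fold 74.7, MLL3 fold 7.98, 209 bp apart).

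By product of ranks, which rewards sites high in both lists, 4 of the first 10 were also among the 10 of highest MLL3 fold. Another, on chromosome 20, was named above. Of those not yet described, the site on chromosome 10 (8407956 to 8408880) combined an MLL3 fold of 23.9 with a GRHL2 fold of 44.4 at a distance of 214 bp. A site on chromosome 8 (96097549 to 96098301) combined 16.8 for MLL3 with 66.4 for GRHL2 at 315 bp, and one on chromosome 6 (3432220 to 3433520) combined 26.2 with 33.9 at 527 bp. A pair on chromosome 11 completed the set (10920886 to 10922633, MLL3 fold 22.9, GRHL2 fold 40.5, and 101881467 to 101882279, MLL3 fold 20.9, GRHL2 fold 46.5). On chromosome 6 the summits were 527 bp apart although the midpoints of the regions were 25 bp apart.

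The longest distances came from MLL3 regions on the shoulder of very wide GRHL2 regions. On chromosome 2 (95981815 to 95982223) an MLL3 region of fold 6.39 sat at the right end of a GRHL2 region of 4091 bp and fold 72.3, with its summit 2550 bp away. On chromosome 10 (35010252 to 35010447) an MLL3 region of 196 bp and fold 6.45 lay 1871 bp from the summit of a GRHL2 region of 3007 bp and fold 34.5. On chromosome 9 (84004336 to 84004908, MLL3 fold 8.72) the GRHL2 region of 2777 bp and fold 14.4 had its summit 1451 bp away.

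Another 2 of the longest distances had a different layout. On chromosome 1 (234792821 to 234794424) both regions were wide, 1604 bp for MLL3 (fold 11.3) and 3386 bp for GRHL2 (fold 8.63), with 2002 bp between the summits. On chromosome 8 (95652669 to 95653362, MLL3 fold 6.39) the MLL3 region overlapped 1 GRHL2 region, but the nearest summit, 1617 bp to the left, belonged to a neighbouring GRHL2 region of fold 16.3. A GRHL2 summit also lay 1927 bp to its right.

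Sites flanked by GRHL2 summits on both sides were a minority. Within 2 kb on each side this held for 256 members (23.4%, 21.0 to 26.1%) and for 19.8% (18.7 to 21.0%) of centred sites, and within 1 kb for 132 members (12.1%, 10.2 to 14.2%) and 6.68% (5.98 to 7.43%) of centred sites. These shares rest on the same GRHL2 summit distances that set offset and centred sites apart, so they describe the sites and test nothing. In the 256, the flanking summits were a median of 1360 bp apart. Their median MLL3 fold was 6.17, against 6.57 in the other members. The flanking summits were often of low significance: with GRHL2 regions of a −log10 q of at least 2 only, 4.88% of the offset sites then found had a GRHL2 summit within 2 kb on both sides.

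Offset sites occurred on every autosome. Chromosome 2 held the most (106), followed by chromosome 1 (99) and chromosome 5 (88), and chromosome 21 the fewest (12). As a share of isolated shared sites they ran from 10.2% (5.94 to 16.0%) on chromosome 14 to 23.9% (18.2 to 30.3%) on chromosome 20. The interval held the value of all chromosomes together, 18.8%, on 21 of the 22, the exception being chromosome 14. In clustered shared regions, which have another MLL3 summit within 12.5 kb, 775 of 2796 (27.7%, 26.1 to 29.4%) had their nearest GRHL2 summit more than 200 bp away. Over all 2796 clustered regions, at any summit distance, the nearest GRHL2 region had a median width of 1005 bp. At isolated sites this median was 865 bp for the offset and 847 bp for the centred ones.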

How the data were processed

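ChIP-seq of MLL3 and GRHL2 in KYSE510 cells was analysed from 1 deposited narrowPeak list per antibody, called against input per the region names in the files. The submitters' processing notes name BWA, Picard, MACS2, deepTools and the build hg19. Tool versions, settings and read depth are not given in the sources used. Fold enrichment (a ratio), −log10 p and −log10 q were taken per region as the authors deposited them; the deposited score column was not used in any result. Positions are 1-based.

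Overlaps, summit distances and classes were computed with Python 3.11.15, numpy 2.4.6, pandas 2.3.3 and scipy 1.17.1. Recovery of summit distances and of classes by overlap and distance was checked on simulated regions. Each of these was isolated, outside the tracts and near only 1 simulated GRHL2 region, so isolation, tracts and multiple overlaps were not checked. Shares have exact Clopper-Pearson 95% intervals and medians order-statistic 95% intervals. Both treat regions as independent and cover counting only. With 1 library per antibody, no test between groups was made. The members and lists were chosen with earlier results of these data known. Sites were named by rule: the 10 of highest MLL3 fold, the 10 of best rank product, the 5 of longest distance, the 5 of highest GRHL2 fold, and those next to each threshold. Classes of fold, q and width were set after the data had been seen. Genes, motifs and sequences were not analysed, as no hg19 annotation or sequence was used.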

Additional observations from a re-analysis of the deposited data

Results flagged for a closer look

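Chromosome X was left out by the rule, and the same criteria gave 19 isolated offset sites there. They are listed only as data that no comparison used. They were 13.1% (exact Clopper-Pearson 95% interval 8.08 to 19.7%) of its 145 isolated shared sites. Their median MLL3 fold was 7.53, their median GRHL2 fold 4.40 and their median summit distance 347 bp.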

How the results depend on the processing

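Of 99 values from 9 results under 11 alternative settings, 63 stayed within the interval of the reported value or, for the number of sites, within 1.5 times, 35 moved further and 1 reversed. Keeping the tracts and taking only summits of overlapping GRHL2 regions moved none of the 9. The difference in median MLL3 fold between offset and centred sites stayed negative and within its interval under all 11 settings. The difference in median GRHL2 fold was not stable against the distance threshold: it was -3.14 at more than 100 bp and -1.58 at more than 300 bp. At more than 500 bp it was 0.809, a reversal of sign with an interval that held both signs (-0.556 to 1.57). The median GRHL2 fold of the 174 remaining sites was 6.40. The distance classes show wider GRHL2 regions beyond 500 bp.

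At more than 100 bp there were 2459 offset sites (42.4% of isolated shared sites), with a median distance of 187 bp, a median GRHL2 fold of 4.46 and 87.0% of MLL3 summits inside a GRHL2 region. At more than 300 bp there were 551 (9.51%), with a median distance of 416 bp and 26.1% flanked on both sides. At more than 500 bp they were 3.002% of isolated shared sites, with a median distance of 637 bp and 81.0% of MLL3 summits inside.

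With GRHL2 regions of a −log10 q of at least 2, offset sites were 16.4% of isolated shared sites, 89.7% of MLL3 summits lay inside, 4.88% were flanked, the median GRHL2 fold was 5.92 and its difference from centred sites -3.52. At a −log10 q of at least 5 there were 480 sites (14.2%), with a median distance of 322 bp, a median MLL3 fold of 6.78, a median GRHL2 fold of 8.07 (difference -7.29), 93.5% of MLL3 summits inside and 1.04% flanked. With MLL3 regions of a −log10 q of at least 5, the median MLL3 fold was 7.18, the offset share 17.6% and the share inside 81.5%. When regions counted as shared only with 50% of the shorter one covered, the median GRHL2 fold was 4.56, the offset share 16.7% and the share inside 89.4%. Unknown read depth limits both lists. No paired analysis was possible because only 1 library per antibody was analysed, and for the same reason none could be left out.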
